A study of Homo sapiens with 6 samples.

Results

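Fatty acid synthesis and desaturation were followed through 10 of the 20332 genes of the count table: FASN, SCD, FADS1, FADS2, ACACA, ACLY, ACSS2, ELOVL5, ELOVL6 and SREBF1. The genes were chosen by symbol as the lipogenic enzymes, desaturases and elongases with their regulator SREBF1, and the choice was made with the fold changes of this comparison already known, so the calls and intervals given for them describe these samples and are not independent evidence of a difference. The cells were Huh-7, a line from a human hepatocellular carcinoma. Poly(A) RNA was sequenced from 3 samples with stable overexpression of RAC3, a small GTPase, and from 3 negative controls whose genotype was given as wild type. All 6 samples shared the same parental line, the single line restricts the comparison to 1 cellular background, and whether the stable cells were 1 clone or a pool is not stated. The 3 RNA samples of each group were called independent without mention of separate cultures, so the p-values below measure only the spread between these samples, which may be technical. The titles named all 3 overexpressing samples RAC3, while the genotype field of those titled RAC3-2 and RAC3-3 read RAC4 and RAC5 overexpression, and groups were taken from the titles.

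The native RAC3 gene lies at chr17:82031624-82034204 (GRCh38, GENCODE release 29). RAC3 was read at 35.6, 31.4 and 32.8 normalized CPM (counts scaled by library size and TMM factor) in the negative controls. In the RAC3 samples it was read at 233, 239.6 and 225. The samples titled RAC3-2 and RAC3-3 thus carried the same high level as RAC3-1, and the log2 fold change was 2.81 ± 0.06 (SE, n = 3 against 3; adjusted p = 9.64e-18, edgeR). Libraries held 13855762 to 18199888 counts, 12941 genes were tested, and 1974 of them were lower and 1717 higher at an adjusted p below 0.05. With scaling by library size alone the split was 1381 lower and 2613 higher. All 11 hepatocyte and liver cancer markers, ALB among them, were detected in every library. Their summed level was 6590, 6650 and 6690 CPM in the negative controls against 6560, 6000 and 6160 CPM in the RAC3 samples. TF, TTR and GPC3 were lower (-0.56, -0.26 and -0.18) and FGB, APOB and AFP higher (0.30, 0.20 and 0.16). Of 17 markers of endothelial, blood and stromal cells, 10 were too low to be tested, CD163 and MS4A1 were at 0 in every library, and the summed level was 237 to 255 CPM in the negative controls against 280 to 292 CPM in the RAC3 samples, mostly from LUM (log2 fold change 0.22), COL1A2 (0.51) and COL1A1 (-0.22), while AFP, LUM and COL1A1 were at 0.01, 0.05 and -0.04 and not called with the GC trend of each library removed. Their part in the results was not tested.

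In lipogenesis, citrate exported from the mitochondrion is cleaved to cytosolic acetyl-CoA, acetyl-CoA is carboxylated to malonyl-CoA, and the fatty acid synthase complex joins these units into palmitate with NADPH as the reductant. Elongases lengthen the chain at the endoplasmic reticulum, and desaturases set double bonds in it. The transcription factor SREBP-1, encoded by SREBF1, is retained in the membrane by the SCAP and INSIG proteins when sterols are plentiful and, once cleaved, activates most genes of the pathway in the liver.

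Promoter windows of 300 bases, 250 before and 50 from the annotated start, were taken from RefSeq (GRCh38.p14). They matched 9 of the 10 members, all but FASN, with 14 windows in all, since some members have more than 1 annotated start. The motif counts below thus do not cover FASN. The windows given are those of SCD, FADS1 and FADS2, 3 of the 4 members with the largest differences between the groups, beside ELOVL5 and ELOVL6, whose groups overlapped. Capitals mark 4 motifs on either strand, namely TCACNCCAC (a form of the sterol regulatory element), CACGTG (the E-box), CCAAT (the NF-Y box, read as ATTGG on the other strand) and GGGCGG (the GC box, CCGCCC on the other strand), each written 5′ to 3′ on the strand of the gene. FADS2 has a second window, at chr11:61815953-61816252, which held 0 of the 4 motifs and is not printed.
SCD (chr10:100346983-100347282, plus strand): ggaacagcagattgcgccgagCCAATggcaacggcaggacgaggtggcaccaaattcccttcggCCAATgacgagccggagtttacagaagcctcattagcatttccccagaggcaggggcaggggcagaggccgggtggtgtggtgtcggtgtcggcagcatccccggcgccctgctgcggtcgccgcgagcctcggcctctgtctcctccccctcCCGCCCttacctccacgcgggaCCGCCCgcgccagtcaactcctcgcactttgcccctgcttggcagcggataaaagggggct
FADS1 (chr11:61816954-61817253, minus strand): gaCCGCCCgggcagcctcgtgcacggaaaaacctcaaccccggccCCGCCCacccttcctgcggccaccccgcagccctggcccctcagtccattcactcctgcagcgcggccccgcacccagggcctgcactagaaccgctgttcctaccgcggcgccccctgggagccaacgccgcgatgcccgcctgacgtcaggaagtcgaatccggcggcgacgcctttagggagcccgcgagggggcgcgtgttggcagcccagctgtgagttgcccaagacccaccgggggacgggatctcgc
FADS2 (chr11:61816154-61816453, plus strand): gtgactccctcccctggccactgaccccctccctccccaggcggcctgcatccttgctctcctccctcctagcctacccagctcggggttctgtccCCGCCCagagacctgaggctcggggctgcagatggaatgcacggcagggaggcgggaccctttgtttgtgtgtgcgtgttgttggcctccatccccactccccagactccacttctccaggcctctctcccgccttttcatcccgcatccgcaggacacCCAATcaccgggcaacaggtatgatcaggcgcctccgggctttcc
ELOVL5 (chr6:53348901-53349200, minus strand): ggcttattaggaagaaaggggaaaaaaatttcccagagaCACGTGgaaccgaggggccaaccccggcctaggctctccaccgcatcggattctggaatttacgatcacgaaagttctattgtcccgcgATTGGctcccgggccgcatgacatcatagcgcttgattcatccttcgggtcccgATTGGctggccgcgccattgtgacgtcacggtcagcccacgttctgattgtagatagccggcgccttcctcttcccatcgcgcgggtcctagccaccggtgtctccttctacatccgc
ELOVL6 (chr4:110198566-110198865, minus strand): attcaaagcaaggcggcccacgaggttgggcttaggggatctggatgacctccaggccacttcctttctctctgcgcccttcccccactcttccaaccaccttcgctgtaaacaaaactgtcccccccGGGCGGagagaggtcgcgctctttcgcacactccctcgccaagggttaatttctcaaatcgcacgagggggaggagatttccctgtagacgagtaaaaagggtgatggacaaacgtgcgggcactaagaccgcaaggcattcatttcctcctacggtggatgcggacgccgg

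The sterol regulatory element in this spelling was found in 0 of the 14 windows and in 1.13% of 35116 human promoter windows of the same length. The CCAAT box was present in 8 of the 14 windows, against 34.6% of all windows, and the GC box in 11 of the 14, against 45.0%, where several windows of a member overlap. The E-box stood in 1 of the 14, that of ELOVL5, against 7.26% of all windows. SCD, whose groups did not overlap, and ELOVL5, whose groups did, both carried a pair of CCAAT boxes. FADS1 and FADS2 are transcribed from opposite strands of chromosome 11, with annotated starts 599 or 800 bases apart. These matches describe letters in a window and not binding.

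Of the 10 members, 8 were lower in the RAC3 samples at an adjusted p below 0.05, where 15.3% of all tested genes were lower and 13.3% higher, and 0 were higher. The same 8 had all 3 RAC3 samples below all 3 negative controls, a pattern seen in 21.6% of tested genes, with 20.9% in the opposite order. At a fold above 1.5 with p below 0.05, the thresholds the study used, 3 were lower (FASN, FADS1 and FADS2), where 2.99% of tested genes were lower and 1.68% higher. Since the members were picked on this contrast, nothing is read from these shares. The median log2 fold change of the members was -0.33, and that of all tested genes was 0.00. Together the 10 genes took 0.697%, 0.683% and 0.674% of the library in the negative controls, against 0.512%, 0.508% and 0.516% with RAC3 overexpression. In bulk RNA, fewer cells expressing a gene and less RNA per cell cannot be told apart, and 3 against 3 samples allow no exact permutation p below 0.1.

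**Figure D1:**
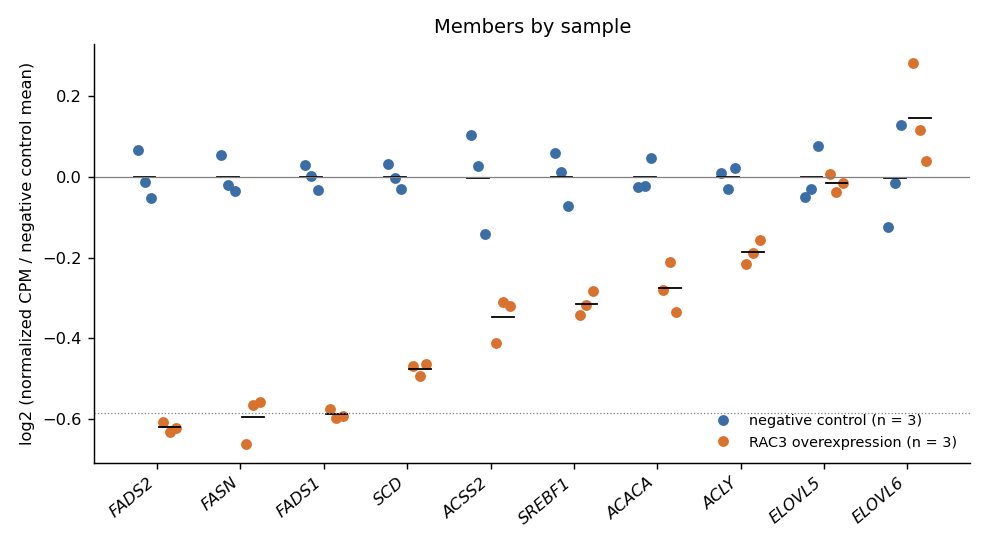
Normalized CPM of each member in each sample, as the log2 ratio to the mean of the negative controls, with blue points for the 3 negative controls, orange points for the 3 RAC3 samples and bars for the mean of the plotted values. The dotted line is a fold of 1.5; 8 genes separate the groups, while ELOVL5 and ELOVL6 overlap.

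ACLY and ACSS2 supply acetyl-CoA, from citrate and from acetate. ACLY (ENSG00000131473, chr17:41866908-41930542) was read at 382, 371 and 385 CPM in the negative controls and at 327, 333 and 340.0 CPM in the RAC3 samples. Its groups did not overlap, and the difference was the smallest among the 8 members that were lower, with a log2 fold change of -0.19 ± 0.04 (SE). ACSS2 (ENSG00000131069, chr20:34872146-34927962) had 73.8, 70.1 and 62.3 CPM in the negative controls against 51.7, 55.4 and 55.0 CPM. Here the negative control with 62.3 CPM lay nearest to the RAC3 samples, and the log2 fold change was -0.34 ± 0.07, with a 95% interval from -0.48 to -0.20. The paralogs ACSS1 and ACSS3 did not pass the test, at 0.25 (adjusted p = 0.595) and 0.05 (adjusted p = 0.851). The citrate carrier SLC25A1, which feeds ACLY and is no member, decreased from 109.8 ± 3.49 to 90.6 ± 5.29 CPM (SD, n = 3 each; log2 fold change -0.28, adjusted p = 0.000953) and was not called, at -0.06, with the GC trend of each library removed (adjusted p = 0.429).

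ACACA, which makes malonyl-CoA in the rate-limiting step of the pathway (ENSG00000278540, chr17:37084988-37406818), was read at 126, 126 and 132 CPM in the negative controls and at 105, 110.4 and 101 CPM in the RAC3 samples. The groups did not overlap, and the log2 fold change was -0.27 ± 0.05. ACACB, the paralog at the mitochondrial surface, did not pass the test, at 10.9 ± 0.39 against 9.04 ± 1.13 CPM (log2 fold change -0.27, adjusted p = 0.136).

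FASN, the fatty acid synthase that makes palmitate (ENSG00000169710, chr17:82078333-82098332, minus strand), was read at 1268, 1203 and 1191 CPM in the negative controls and at 772, 824 and 829 CPM in the RAC3 samples. The first sample of each group was the most extreme, and the means were 1220.4 ± 41.3 and 809 ± 31.6 CPM (SD), a decrease of the mean with log2 fold change -0.59 ± 0.04 and a 95% interval from -0.68 to -0.51. Set against ACLY in the same libraries, FASN gave 3.32, 3.24 and 3.10 counts per ACLY count without and 2.36, 2.48 and 2.44 with RAC3 overexpression. The ratio needs no scaling between libraries and separated the groups, but both genes are chosen members, so it adds no evidence. GC content of the longest transcript was 65.3% for FASN and 52.2% for ACLY. With the GC trend of each library removed, their log2 fold changes were -0.37 and -0.13.

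The elongases were the members that did not separate. ELOVL5, which lengthens polyunsaturated chains (ENSG00000012660, chr6:53267398-53349179), was read at 115, 116 and 125 CPM in the negative controls and at 119, 116 and 118 CPM in the RAC3 samples. Its log2 fold change of -0.02 had a 95% interval from -0.12 to 0.09, and the sign turned under 4 of 17 alternative settings. ELOVL6, which extends palmitate to stearate (ENSG00000170522, chr4:110045846-110199199), had 24.4, 26.2 and 29 CPM against 32.2, 28.7 and 27.2 CPM, a log2 fold change of 0.15 with an interval from -0.04 to 0.33. Of the other elongases, ELOVL7 rose from 27.9 ± 1.89 to 32.6 ± 0.98 CPM (log2 fold change 0.23, adjusted p = 0.0295), a call lost in 8 of 17 alternatives, among them the fits without any 1 of the 3 RAC3 samples or of negative controls 2 and 3 and the removal of the GC trend (0.06). ELOVL1, ELOVL2, ELOVL3 and ELOVL4 did not pass the test, with log2 fold changes from -0.18 to 0.08.

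All 3 desaturases among the members were lower. SCD, the delta-9 desaturase that makes oleate and palmitoleate (ENSG00000099194, chr10:100347124-100364834), was read at 3273, 3199 and 3138 CPM in the negative controls and at 2314, 2276 and 2323 CPM in the RAC3 samples. The nearest samples of the groups differed by several times the spread within either group, and the log2 fold change was -0.48 ± 0.03. FADS1, the delta-5 desaturase (ENSG00000149485, chr11:61799625-61829318, minus strand), had 436, 428 and 418 CPM against 287, 283 and 284 CPM, with a log2 fold change of -0.59 ± 0.04. FADS2, the delta-6 desaturase (ENSG00000134824, chr11:61792980-61867354, plus strand), had 1007, 953 and 928 CPM against 632, 622 and 626 CPM, and the largest difference of the 10, at -0.62 ± 0.04. The 3 RAC3 samples varied by 0.841% for FADS1 and 0.785% for FADS2 (coefficient of variation), and the 3 negative controls by 2.1% and 4.21%. The median of genes with at least 300 counts was 4.59% in the RAC3 samples and 4.51% in the negative controls. With mean counts of 5630 and 12551, FADS1 and FADS2 carry less counting noise than genes near 300 counts, so the values are not directly comparable.

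FADS2 and FADS1 kept nearly one ratio, with 2.31, 2.23 and 2.22 FADS2 counts per FADS1 count without and 2.2, 2.2 and 2.21 with RAC3 overexpression. SCD against the elongase ELOVL5 moved from 28.5, 27.5 and 25 to 19.4, 19.7 and 19.8, so the counts of the desaturase declined relative to those of the elongase within each library. The gene bodies of FADS1 and FADS2 overlap on opposite strands and share 490 exon bases, 4.8% and 4.4% of their exons. Whether the counting used strand is not given in the sources used here, so reads from these bases cannot be told apart. The paralogs FADS3 (47.0 ± 3.46 against 44.3 ± 0.59 CPM, adjusted p = 0.403) and SCD5 (1.3 ± 0.03 against 1.31 ± 0.15 CPM, adjusted p = 0.988) did not pass the test. Just inside the 1.5-fold threshold, which is 0.585 on the log2 scale, stood FADS1, and the first member outside it was SCD.

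SREBF1, the regulator (ENSG00000072310, chr17:17810399-17837002, minus strand), was read at 468, 453 and 427 CPM in the negative controls and at 354, 360.3 and 369 CPM in the RAC3 samples. The groups did not overlap, and the log2 fold change was -0.31 ± 0.04. It shares 556 exon bases, 6.9% of its exons, with RAI1 on the other strand. Its paralog SREBF2, the main activator of cholesterol synthesis, fell from 433 ± 17.4 to 332 ± 9.08 CPM (log2 fold change -0.38, adjusted p = 2.62e-06). Of 11 paralogs, SREBF2 alone was lower, against 15.3% of all tested genes, and 1 was higher, against 13.3%. SREBF2 is also counted among the lower genes of the SREBP processing and lipogenic regulator list below.

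Per transcript length, in FPKM as deposited, SCD was the most abundant member of the negative controls at 598 ± 8.36 FPKM (SD), followed by FADS2 at 335 ± 14.2, FASN at 158 ± 9.27, SREBF1 at 121 ± 5.91, FADS1 at 105 ± 3.59 and ACLY at 95.1 ± 4.61. ELOVL5 at 43.4 ± 2.15, ACSS2 at 28.8 ± 3.73, ACACA at 14.9 ± 1.13 and ELOVL6 at 4.23 ± 0.31 FPKM closed the order. No neighbours in this order overlapped in their 3 values. In the RAC3 samples SCD still led, at 448 ± 6.51 FPKM, FASN (103 to 109 FPKM) and SREBF1 (99.1 to 105 FPKM) overlapped, and ACLY at 90.4 ± 4.06 stood above FADS1 at 72.9 ± 2.67.

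**Figure D2:**
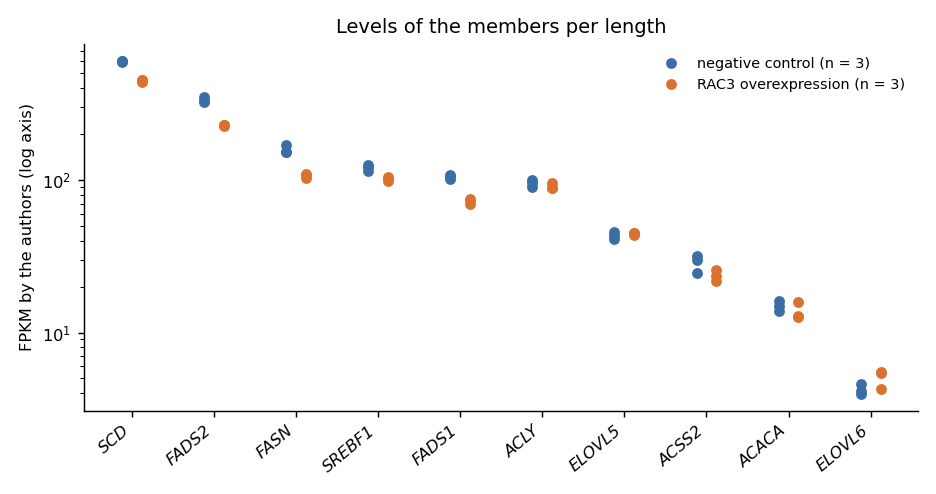
FPKM of each member by sample on a log axis, with genes in the order of their level in the negative controls (blue, n = 3) and the RAC3 samples in orange (n = 3). SCD leads at 598 FPKM in the negative controls and ELOVL6 closes the order at 4.23 FPKM.

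The length that links counts to FPKM differed between genes in how constant it was. For SCD, which has 1 annotated transcript, it was 5245 bases in every sample, but for ACACA it ran from 7077 to 8965 bases, a ratio of 1.27, so the FPKM values also carry a transcript length estimated in each sample. On log2(FPKM + 0.1) with limma, ACACA, ACLY and ACSS2 were no longer called, with log2 fold changes of -0.12, -0.07 and -0.28, and 5 of the 10 members were lower. SCD, FADS1, FADS2 and FASN were lower on that scale too, at -0.42, -0.53, -0.56 and -0.57.

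GC content of the longest transcript moved with the difference. Over all 12863 tested genes with a value, Spearman's correlation between GC content and log2 fold change was -0.512, and over the 10 members it was -0.661, where the points share libraries and genes are not independent replicates. FASN, at 65.3% GC, lay at the 96.5th percentile of all genes, and ELOVL6 and ELOVL5, at 41.2% and 41.7%, lay at the 19.5th and 21.7th. With the GC trend of each library removed, the log2 fold change was -0.37 for FASN, -0.12 for SREBF1, -0.47 for FADS2, -0.56 for FADS1 and -0.50 for SCD. None of the 10 passed the 1.5-fold threshold then, 9 were lower at an adjusted p below 0.05 with ELOVL5 as the added gene at -0.13, and the median of the members was -0.26. The part of GC content in the result was not tested further.

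**Figure D3:**
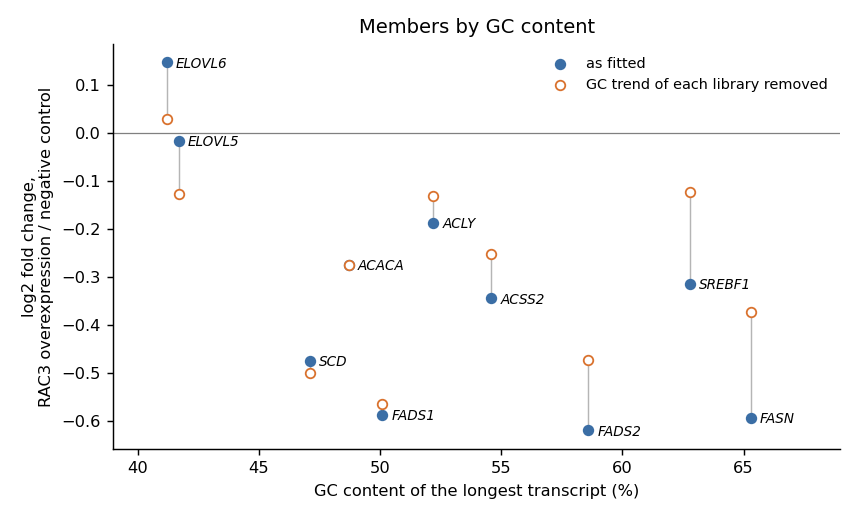
Log2 fold change of each member against the GC content of its longest transcript, as fitted (filled blue) and with the GC trend of each library removed (open orange), joined by a line for each gene; for ACACA both points coincide at -0.27. FASN and SREBF1 shift most, to -0.37 and -0.12, and SCD and FADS1 shift little.

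Across the 6 samples, SCD, FADS1 and FADS2 followed the mean of the other 9 members most closely, with Pearson's r of 0.997, 0.998 and 0.996 on centred log2 CPM. ACSS2 had an r of 0.901, ELOVL5 0.116 and ELOVL6 -0.653. These are descriptions over 6 samples in 2 groups, which share the libraries and the difference between the groups. Outside the gene lists, the 5 of 11057 genes whose pattern was most like the members' mean were COL9A3, NOL4L, PHF21A, COX8A and RPL3, with r from 0.9984 to 0.9988. RPL3, a protein of the large ribosomal subunit, went from a mean of 2183 to 1614 CPM.

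Among 22 further genes of fatty acid synthesis, 18 were tested, and 5 were lower and 2 higher. Of all tested genes, 15.3% were lower and 13.3% higher. The median log2 fold change of the list was -0.01, or 0.04 with scaling by library size alone. Lower beside SLC25A1 were TECR, the last enzyme of each elongation cycle (-0.24, adjusted p = 0.00144), MID1IP1, which promotes polymerization of acetyl-CoA carboxylase (-0.24, adjusted p = 0.00245), AACS, an acetoacetyl-CoA synthetase (-0.27, adjusted p = 0.00893), and ACSL1, which activates long-chain fatty acids (-0.22, adjusted p = 0.025). The elongation cycle enzymes HACD2 (0.15, adjusted p = 0.0197) and HSD17B12 (0.16, adjusted p = 0.0423) were called higher, but with the GC trend removed, without RAC3 sample 1 or without RAC3 sample 3, 0 genes of the list were. With the GC trend removed MID1IP1 was not called either, at -0.12, AACS was not called without RAC3 sample 1, and ACSL1 was lost in 7 of 17 alternatives, 4 of them fits without negative control 2 or 3 or RAC3 sample 2 or 3. THRSP and OLAH had 0 counts in all libraries, where 3 counts correspond to 0.167 to 0.215 CPM.

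Of 8 tested genes that supply NADPH, 4 were lower, against 15.3% of all tested genes, and 0 higher, with a median of -0.17. IDH2, the mitochondrial NADP-dependent isocitrate dehydrogenase, fell from 366 ± 22.5 to 245 ± 6.52 CPM (log2 fold change -0.58, adjusted p = 4.71e-08). PGD, the 6-phosphogluconate dehydrogenase of the pentose phosphate pathway, fell from 478 ± 4.2 to 360.4 ± 2.70 CPM (-0.41, adjusted p = 3.39e-07), and PGLS and NADK were lower at -0.38 and -0.21, the latter at -0.09 and not called with the GC trend removed.

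Of 23 SREBP processing and lipogenic regulator genes, 9 were lower, against 15.3% of all tested genes, and 1 higher, against 13.3%. The median was -0.10. INSIG1, which anchors the SREBP complex and is itself an SREBP target, fell from 108 ± 0.72 to 73.6 ± 1.66 CPM (log2 fold change -0.55, adjusted p = 3.24e-07). SCAP, the SREBP escort protein (-0.34, adjusted p = 0.000135), RXRA, the partner of the liver X receptors (-0.40, adjusted p = 0.000125), and USF2, an E-box binding factor (-0.31, adjusted p = 0.000566), were lower. With the GC trend of each library removed, INSIG1, SCAP, RXRA and USF2 were at -0.60, -0.16, -0.23 and -0.16 and still called. In that fit 7 genes of the list were lower and 0 higher. PRKAA1, a catalytic subunit of AMP-activated kinase, was called higher at 0.19 (adjusted p = 0.0118), but not with the GC trend removed (0.01) or without negative control 1 or RAC3 sample 1. Of 28 genes of triglyceride synthesis and lipid droplets, 22 were tested. Of these, 4 were lower, near the share of 15.3% over all tested genes, and 0 higher, with a median of -0.09. With the GC trend removed, 2 were lower and 1 higher and the median turned to 0.01, and 2 were lower with DESeq2, with limma-voom and without negative control 1 or any 1 RAC3 sample. AGPAT3 (-0.31), AGPAT2 (-0.22) and DGAT1 (-0.21) separated the groups, while AGPAT2 and DGAT1 were at 0.01 and -0.01 with the GC trend removed and the call of DGAT1 was lost in 10 of 17 alternatives. PLIN2, the lipid droplet coat protein, was called at -0.28 although the groups overlapped. The first negative control read 245 CPM of PLIN2 and the other two 179 and 154 CPM, against 156 to 161 CPM in the RAC3 samples, and its call was lost in 10 of 17 alternatives, including the fit without that library.

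Cholesterol synthesis and uptake, which SREBP-2 governs, had 14 of 23 genes lower, against 15.3% of all tested genes, and 0 higher. The median was -0.23, and with the GC trend removed 13 were lower with a median of -0.14. DHCR7, the last enzyme of one branch of the pathway, fell from 316 ± 9.86 to 229 ± 8.94 CPM (log2 fold change -0.46, adjusted p = 4.08e-07), and FDFT1 (-0.37) and LSS (-0.39) were lower. The early enzyme HMGCS1 was not called, at 0.05 (adjusted p = 0.44). Fatty acid oxidation had 5 of 25 genes lower, near the share of 15.3% over all tested genes, and 2 higher. Lower were ETFB, HADH, ECI1, ACADVL and ACADS, from -0.32 to -0.16. The call was lost in 10 of 17 alternatives for ACADS, in 6 for ACADVL and in 2 for ECI1. ETFB and HADH kept it in all 17. ACADS, ACADVL and ECI1 were at -0.08, -0.01 and -0.12 and not called with the GC trend removed. The median of the list was -0.04, or 0.01 with scaling by library size alone. With the GC trend removed 2 were lower and 2 higher and the median was -0.08, and 3 were lower with scaling by library size, with the length trend removed and without negative control 1 or RAC3 sample 3. The carnitine carrier SLC25A20 rose from 22.1 ± 1.49 to 26.7 ± 1.57 CPM (0.27, adjusted p = 0.0226), a call lost without negative control 1 or 3 or RAC3 sample 2 or 3, and CPT1A, the entry enzyme of oxidation, was at -0.003 with an interval from -0.14 to 0.14. Differences between the lists were not tested.

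**Figure D4:**
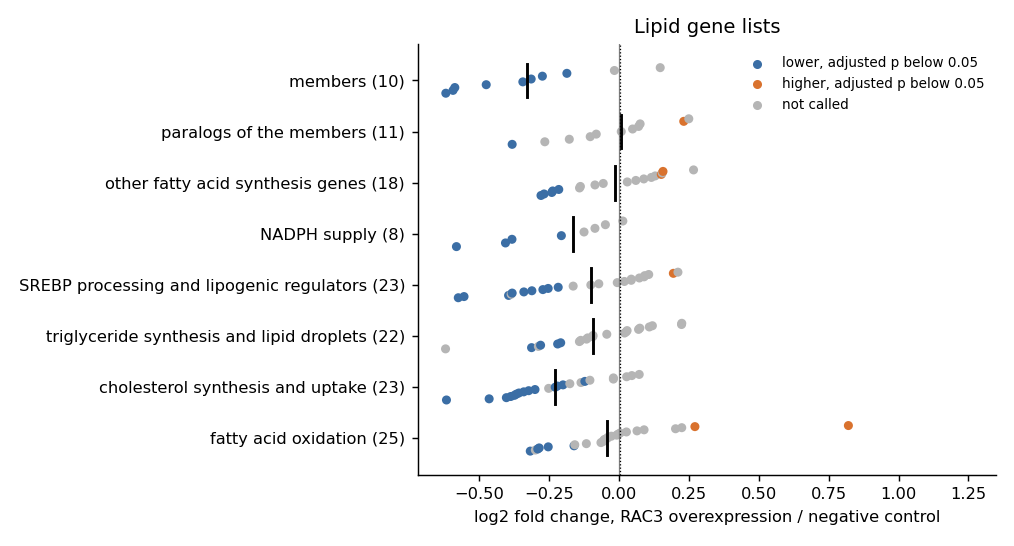
Log2 fold change of each tested gene in 8 lipid gene lists, with the number tested in parentheses, blue for lower and orange for higher at an adjusted p below 0.05, grey for not called, and a black bar at the list's median. The dotted line is the median of all tested genes; the members and the cholesterol genes have medians of -0.33 and -0.23 and fatty acid oxidation -0.04.

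FASN lies 44.1 kb from the native RAC3 gene on chromosome 17. The paper's stable lines were made with lentiviruses carrying RAC3. The added copies thus came from a vector, and their insertion sites are not stated. Of the 8 other tested genes within 100 kb of FASN (ASPSCR1, CENPX, LRRC45, DCXR, RFNG, GPS1, DUS1L and CCDC57), 0 were called at an adjusted p below 0.05 by edgeR, and 2 of them, CENPX at 0.23 and GPS1 at -0.15, had an unadjusted p below 0.05 (0.0424 and 0.0415). Around FADS2 the picture differed gene by gene. Of 9 tested neighbours, 5 were lower, where 15.3% of all tested genes were lower and 13.3% higher. FADS1 among them is itself a member picked on this contrast. MYRF, a membrane-bound transcription factor (-0.27, adjusted p = 0.000224), and TMEM258 (-0.21, adjusted p = 0.0446) were lower too. The others were RAB3IL1 (-0.38) and FTH1, the ferritin heavy chain (-0.18). With the GC trend removed MYRF, TMEM258 and RAB3IL1 were not called, at -0.11, -0.18 and -0.17, RAB3IL1 was not called without negative control 1, and the call of TMEM258 was lost in 11 of 17 alternatives. FEN1, a flap endonuclease whose annotated gene overlaps that of FADS2, was at 0.01 with 187 ± 5.40 CPM in the negative controls and 188 ± 1.71 CPM in the RAC3 samples (adjusted p = 0.907). FADS3, DAGLA and BEST1 did not pass the test either.

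**Figure D5:**
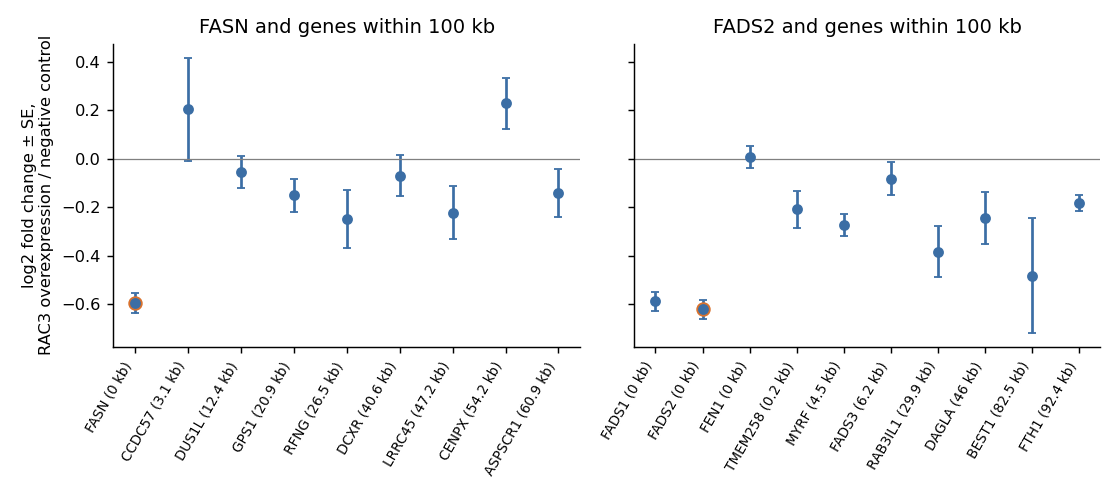
Log2 fold change with its standard error for FASN (left, orange rim) and FADS2 (right, orange rim) and the tested genes within 100 kb of each, ordered by the gap between the genes in kb; RAC3 is left out. FASN at -0.59 lies below its 8 neighbours, and FADS1 lies beside FADS2.

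Hypoxia-induced genes moved with the groups as well. Of 25 listed genes 24 were tested, 21 were lower, against 15.3% of all tested genes, and 0 higher, with a median of -0.57. The summed level of the list was 9900, 8650 and 8060 CPM in the negative controls against 6170, 6490 and 6400 CPM in the RAC3 samples. The 5 with the smallest p were the glycolytic enzymes ALDOC (-0.74), ENO1 (-0.53), LDHA (-0.35) and PGK1 (-0.47) and the mitophagy receptor BNIP3 (-0.85). The first negative control had the highest sum of all libraries, and PFKFB4, a glycolytic regulator, was read there at 87.3 CPM against 36.7 and 19.7 CPM in the other negative controls. Without that library, 8 of the 10 lipogenic members were still lower, their median was -0.29, and 1 of them, FADS2 at -0.59, passed the 1.5-fold threshold, while 19 hypoxia-induced genes were lower and 1 higher. The part of the hypoxia-induced genes in the values of the members was not tested.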

How the data were processed

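Poly(A) RNA of 3 negative control and 3 RAC3 overexpression samples of Huh-7 cells was sequenced. The authors deposited raw counts per gene and FPKM per sample, together with mean FPKM per group and their own fold changes and p-values, which were not used. The submitters' processing notes name Bowtie2 2.2.8, HISAT2, StringTie 1.3.1 and DESeq2, and the build and annotation are not given in the sources used here. Counts were fitted across all genes with edgeR 4.0.16 (quasi-likelihood test, filterByExpr, TMM; Benjamini-Hochberg adjustment over 12941 genes; common biological coefficient of variation 0.0533) in R 4.3.3. A simulation of 3 against 3 samples on 12851 genes, with folds of 1.5, 2 and 4 mixed, called 185 of 199 changed genes and 8 unchanged ones. It held no GC trend and no fold below 1.5, so it does not cover smaller differences such as those of SCD and ACLY. FPKM were tested as log2(FPKM + 0.1) with limma 3.58.1, which understates changes of low genes, and DESeq2 1.42.0 was an alternative. Intervals are 95%. GC content and length are those of the longest transcript in GENCODE release 29, coordinates are GRCh38 matched by Ensembl identifier, and trends were removed by lowess with a span of 0.3.

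The members and gene lists were chosen with earlier results of these data known. Named were all members and their paralogs, RAC3, from each other list the called genes of smallest p, up to 5 lower and 5 higher, tested genes within 100 kb of FASN or FADS2, and the 5 genes in no list with a mean of at least 50 counts that were most correlated with the members' mean. PFKFB4, THRSP, OLAH, CD163, MS4A1, HMGCS1, CPT1A and ALB were named after their values were seen. Some genes that this rule names are not reported here. Replicate numbers were not used to pair the samples, and the titles state no pairing. Deviations of same-numbered samples from their group means had correlations of -0.0873, -0.0455 and -0.0207, which cannot exclude a shared batch.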

Additional observations from a re-analysis of the deposited data

How the results depend on the processing

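The counts of called genes, the list medians and the fold changes of RAC3, the members and the called genes of the lists were recomputed under 17 alternatives; count ratios, FPKM levels and correlations were not. The 8 lower members stayed 8 in every fit that left out 1 library, with other scalings, other filters, DESeq2, limma-voom and the length trend removed, and were 9 with the GC trend removed and 5 with FPKM and limma. With scaling by library size, 2613 genes were higher, 0 members passed the 1.5-fold threshold, the medians were -0.27 for the members and 0.0601 for all genes, and ELOVL5 turned to 0.0398. With the GC trend removed, 0 members passed that threshold and their median was -0.26. With FPKM and limma, 858 genes were lower, 0 members passed the threshold, the medians were -0.26 and 0.0536, and ELOVL5 was at 0.0336. ELOVL5 was at 0.0055 with the length trend removed. Across the fits without 1 library, 1 to 3 members passed the threshold (1 without negative control replicate 1), the members' median ran from -0.39 (without negative control replicate 3) to -0.29 (without negative control replicate 1), and ELOVL5 ran from -0.0449 to 0.0194. The median was -0.29 without FASN and FADS2. The cause of these shifts was not tested. With the replicate number as a block, a pairing that the titles do not state, 1777 genes were lower and 1484 higher. In that fit 8 members were lower and their median was -0.33. FASN ran from -0.65 to -0.37, SREBF1 from -0.35 to -0.12 and ACLY from -0.21 to -0.07 over all alternatives. Depth limits ELOVL6 most among the members, at a mean of 447 counts.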
